A study of Homo sapiens with 6 samples.

Results

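Both THUMPD2 knockout lines formed 1 arm that was set against wild type, with 4 knockout and 2 wild-type libraries, which are all 6 libraries of the series. HEK293T cells, a human embryonic kidney line carrying the SV40 large T antigen, were wild type (WT, 2 libraries), THUMPD2 knockout line KO#1 (KO1, 2 libraries) or THUMPD2 knockout line KO#2 (KO2, 2 libraries). The labels give the cell type as kidney and name no treatment, and what the groups share is the HEK293T background. How the knockout lines were made, whether each grew from 1 cell, and whether replicate libraries were cultured apart were not stated in the sources used here. The p-values therefore cover only the spread between these libraries, within and between the knockout lines, and the part within a line may be technical. With 1 wild-type line, a change shared by both knockout lines cannot be told apart from any other difference between the wild-type line and both knockout lines.

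THUMPD2 is a methyltransferase that, with its small activating partner TRMT112, places a methyl group on a guanosine of the U6 small nuclear RNA. U6 is the RNA at the catalytic centre of the spliceosome, which removes introns from pre-mRNA, and splicing factors are in turn controlled at many levels by their own splicing. The stated aim was to measure differential expression and alternative splicing in THUMPD2 knockout cells, and a pair of lines was used so that results could be repeated.

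The count table has 59087 rows, each named by a gene symbol. Rows were placed on GRCh38 with the GENCODE v29 annotation, and each is given here with the gene annotated on the opposite strand over its exons, since reads of the gene and of its opposite-strand partner could not be told apart by the row's name. Rows with exons over opposite-strand exons held 89.5% to 90.3% of all reads in each library. The row VIM, for example, had WT counts of 339 and 352, while VIM-AS1, on the other strand of the same locus, had 26970 and 28026. Hence "the row X over Y" means the reads counted under X, where Y lies on the opposite strand, and a change is stated for the row and not for either gene. Counted totals per library ran from 7414339 to 8391143 reads, while the text of the series gives more than 240000000 reads for each.

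THUMPD2 itself (chromosome 2, 39736060 to 39779267, minus strand) had WT counts of 1 and 2, KO1 counts of 3 and 0, and KO2 counts of 0 and 1, too few to test. No opposite-strand row lies over its exons, so the target did not check the genotype labels. The row TRMT112, over ESRRA, had WT counts of 992 and 983, KO1 counts of 799 and 868, and KO2 counts of 689 and 745, a log2 fold change of −0.37 ± 0.16 (SE) that was not called (edgeR adjusted p = 0.196), and the lines differed by 0.43. ESRRA, the row over TRMT112, stood at −0.04 (adjusted p = 0.866). Of 8 HEK293T markers, 7 had a mean of at least 10 reads in their own or opposite-strand row. Their summed level in CPM (counts scaled to the library total) was 7920 to 7940 in WT. It was 6950 to 7480 in KO1 and 13300 to 13500 in KO2. Rows over VIM made up most of this sum, and the rows KRT8 and KRT18, over each other, were added for both markers. Single markers moved differently. AF106564.1, over NEFM, had WT counts of 719 and 772, KO1 counts of 74 and 67, and KO2 counts of 6469 and 6574. AC110015.1, over CDH2, rose in both lines, while LIN28B fell from 21 and 19 reads to between 3 and 11. The sum therefore does not describe the markers as a set. Markers of other cell types were low. The 10 markers of kidney tubule epithelium summed to 16 and 16.6 CPM in WT and 6.79 to 9.02 in the knockout libraries, with UMOD at 0, the 6 fibroblast markers to at most 2.76 CPM, the 4 endothelial markers to at most 2.52, the 5 blood markers to 17.8 to 39.8 and the 3 hepatocyte markers to 10.7 to 15.8, with ALB at 0.

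Pooling keeps the difference between the lines in the error only in part, since the fit counts the 4 knockout libraries as independent. Libraries of a line were correlated (0.327 in limma-voom). The biological coefficient of variation, the spread between libraries of an arm beyond counting noise, was 20.1% with both lines in 1 arm and 7.57% with 3 groups. Of 14184 rows tested with the edgeR quasi-likelihood test, 1223 (8.62%) passed a Benjamini-Hochberg adjusted p of 0.05, called below, 535 higher (3.77%) and 688 lower (4.85%) in the knockout arm. In all 1223, the 4 knockout libraries lay beyond both WT libraries. A call was of like size when in addition the 4 knockout values of log2 CPM spanned at most 1.5-fold and the least changed library moved at least 0.5 times as far from WT as the most changed. This held for 741 rows (5.22% of those tested), 338 higher (2.38%) and 403 lower (2.84%). With the libraries of each knockout line summed, 409 rows were called, 253 of them of like size. In limma-voom with the line as a random block these numbers were 641 and 422. The like-size condition was applied to the values that gave the calls, so it describes the rows and tests nothing.

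The like-size rows were mostly modest in size. Their median fold was 1.72, 221 of them changed at least 2-fold (124 higher and 97 lower), and the median span of the 4 knockout libraries was 0.275 in log2. Just inside the limit was GDI2, over AL596094.1, with WT counts of 245 and 260, KO1 counts of 102 and 105, and KO2 counts of 169 and 170. AC009065.5, over AC009065.2, lay just outside, with WT counts of 112 and 98, KO1 counts of 46 and 45, and KO2 counts of 36 and 36. The direct test of KO1 against KO2 called 2889 of the 14184 rows (20.4%). Among the like-size rows it called 110 (14.8%), and among the other 482 called rows 199 (41.3%). No row called in opposite directions in the 2 lines, of which there were 161 in the fit with 3 groups, was called with the lines pooled. The rows that were called but not of like size include changes of unequal size in the lines, such as AC011503.1 over the zinc finger gene ZNF726, with 64 and 64 reads in WT, none in KO1 and 7 and 13 in KO2.

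**Figure D1:**
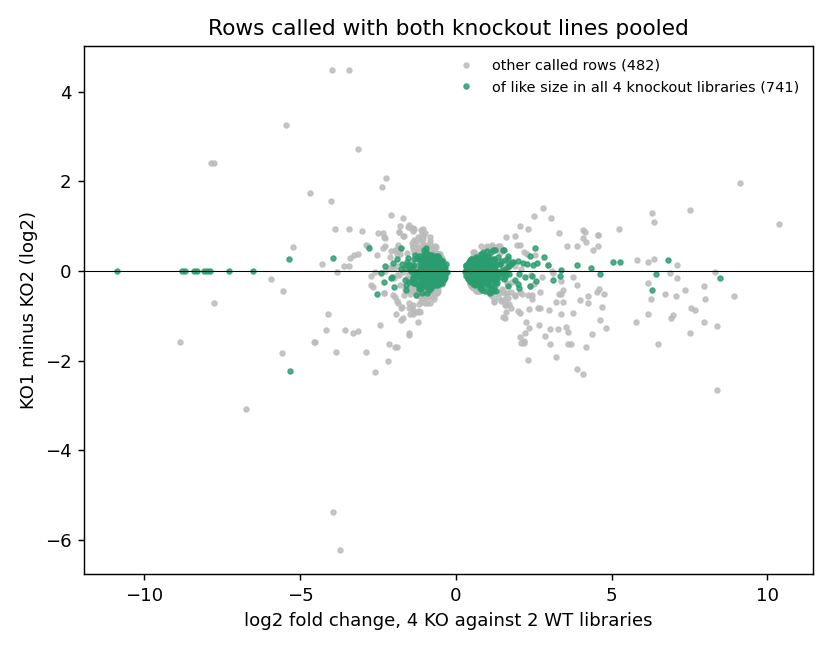
Each point is 1 of the 1223 rows called with both knockout lines pooled, by its log2 fold change of 4 knockout against 2 WT libraries (horizontal) and the log2 difference KO1 minus KO2 (vertical). The median absolute difference between the lines was 0.14 in the 741 rows of like size (green) and 0.51 in the other 482 (grey). The largest among the like-size rows was 2.23. These differences are from the fit of 3 groups. The like-size span used log2 CPM with a prior count of 2, which narrows the span in rows of few reads.

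The authors' deposited table of the same 4 against 2 comparison listed 11785 rows, 1164 of them with a q-value under 0.05. Of these 1164, 1061 (91.2%) were called here, all with the same sign, and they made up 86.8% of the calls. Among the 741 like-size rows, 697 had a q-value under 0.05 in the authors' deposited table.

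The number of calls depended most on the 2 WT libraries. Leaving out WT library 1 left 204 calls and leaving out WT library 2 left 197, against 939 to 1147 when a knockout library was left out. Without 1 WT library the WT arm is a single sample, the spread comes from the knockout libraries alone and the lone sample is assumed to vary like them, so a lower number of calls follows in part from the design. The like-size rows that stayed called whichever 1 of the 6 libraries was left out numbered 104, of which 37 were higher and 67 lower, and 77 of the 104 changed at least 2-fold. Rows described next belong to these 104 unless another call is stated, and those outside the rule for named rows were chosen after their values were seen.

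The rows with an assigned protein-coding gene that rose most lay over JAKMIP2, LYPD1, SELENOP, FAM84B and NCAM1. GPR39 (chromosome 2, 132416574 to 132646559, plus strand), which shares 1180 exonic bases with LYPD1, a Ly6-family surface protein that modulates nicotinic acetylcholine receptors, had WT counts of 19 and 28, KO1 counts of 2616 and 2775, and KO2 counts of 2477 and 2779. The rise was 6.80 ± 0.20 in log2 (111-fold, edgeR adjusted p = 2.29e-07). JAKMIP2-AS1 (chromosome 5, 147559994 to 147662009, plus strand), over 524 exonic bases of JAKMIP2, which encodes a coiled-coil protein of neurons, had WT counts of 0 and 2, KO1 counts of 336 and 370, and KO2 counts of 437 and 481. The ratio of summed CPM was 407.8, with an exact interval of 112.7 to 3370.1 that covers counting error only, and the rise passed at an edgeR adjusted p of 3.27e-06. CCDC152, over SELENOP, the selenium transport protein, went from 8 and 11 reads to 660 and 559 (KO1) and to 876 and 1014 (KO2), with KO1 lower than KO2 by 0.42 in log2. PCAT1, over FAM84B, had WT counts of 169 and 142, KO1 counts of 6213 and 5982, and KO2 counts of 5995 and 6223, 38.5-fold more.

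NCAM1 encodes the neural cell adhesion molecule, a surface protein of neurons and of embryonic kidney, and 3 rows at its locus on chromosome 11 rose together. NCAM1-AS1 (113269532 to 113273901, minus strand), over 552 exonic bases of NCAM1, had WT counts of 29 and 23, KO1 counts of 563 and 457, and KO2 counts of 608 and 522, a log2 rise of 4.33 ± 0.21 (edgeR adjusted p = 3.27e-06). AP000802.1, over the other end of NCAM1, went from 9 and 6 reads to between 73 and 92 and rose by 3.38. The row NCAM1 itself had WT counts of 1 and 2, KO1 counts of 40 and 34, and KO2 counts of 38 and 52, a ratio of 27.5 (9.2 to 134.5, counting error only). That row lost its call in limma-voom with the line as a random block. None of the 3 differed between the lines beyond its interval, with KO1 minus KO2 at 0.06 (−0.16 to 0.28), 0.03 (−0.45 to 0.50) and −0.07 (−0.73 to 0.60).

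Sequence upstream of the start site is shown for the genes under the 2 rows of largest change with an assigned opposite-strand protein-coding gene, LYPD1 and JAKMIP2, and for the gene under the row of this kind that fell most, ADAMTSL4. The 250 bases before each start are RefSeq sequence of GRCh38.p14, written 5′ to 3′ on the strand of the gene, with every CG dinucleotide in capitals. CG counts in the 250 bases were 2 for LYPD1 (chr2:132671527-132671776, minus strand), 4 for JAKMIP2 (chr5:147782729-147782978, minus strand) and 38 for ADAMTSL4 (chr1:150549158-150549407, plus strand). Of all promoters in that table, 23.6% have at most 2, 35.0% at most 4 and 3.16% at least 38. CG reads the same on both strands.
LYPD1: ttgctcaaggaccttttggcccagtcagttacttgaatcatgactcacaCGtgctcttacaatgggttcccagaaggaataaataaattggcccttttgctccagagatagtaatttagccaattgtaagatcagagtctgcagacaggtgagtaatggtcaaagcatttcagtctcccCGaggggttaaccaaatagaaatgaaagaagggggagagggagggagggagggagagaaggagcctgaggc
JAKMIP2: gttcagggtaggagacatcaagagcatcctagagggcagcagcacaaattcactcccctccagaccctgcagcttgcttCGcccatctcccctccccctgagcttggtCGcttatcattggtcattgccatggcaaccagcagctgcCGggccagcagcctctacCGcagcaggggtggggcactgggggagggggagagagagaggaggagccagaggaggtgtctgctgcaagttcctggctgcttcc
ADAMTSL4: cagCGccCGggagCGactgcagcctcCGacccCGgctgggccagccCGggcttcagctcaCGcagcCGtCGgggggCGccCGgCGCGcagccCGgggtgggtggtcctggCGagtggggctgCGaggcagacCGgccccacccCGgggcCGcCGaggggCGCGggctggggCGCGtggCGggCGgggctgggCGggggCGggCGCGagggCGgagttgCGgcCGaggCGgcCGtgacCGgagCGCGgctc
These counts describe the letters of this window, and no expression value was tested against them.

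Further rows that rose lay over PRSS23, TNC, NREP, CCND2, PRICKLE1 and TYW3. FZD4, a Wnt receptor, whose row lies over 1399 exonic bases of PRSS23, a secreted serine protease, had WT counts of 92 and 94, KO1 counts of 396 and 411, and KO2 counts of 580 and 593, a log2 rise of 2.37 ± 0.17 (edgeR adjusted p = 6.94e-05). KO2 was above KO1 by 0.32. DEC1, over TNC, the matrix protein tenascin C, went from 4 and 9 reads to between 43 and 52, a rise of 2.84. STARD4-AS1, over NREP, a neuronal regeneration-related protein, had WT counts of 878 and 930, KO1 counts of 2798 and 2732, and KO2 counts of 2662 and 2710, 1.57 ± 0.12 in log2. The 4 knockout libraries of that row fell within a narrow band, as the like-size condition requires. CCND2-AS1, over 126 exonic bases of CCND2 (cyclin D2, which drives entry into the cell cycle), rose by 2.01 and AC079601.1, over PRICKLE1 (planar cell polarity), by 1.19. CCND2 was not an assigned gene of CCND2-AS1, since these 126 bases were too small a share of the row's opposite-strand overlap. CRYZ, a quinone reductase, has its row over TYW3, an enzyme of wybutosine synthesis in phenylalanine tRNA, and had 238 and 235 reads in WT and 1001 to 1180 in the knockout libraries, a rise of 2.16 ± 0.13. At the same locus the row TYW3, over CRYZ, had WT counts of 22 and 24, KO1 counts of 39 and 61, and KO2 counts of 73 and 88, called but not of like size.

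Developmental transcription factors were among the loci where the rows of both strands rose. In each pair below 1 row held far fewer reads than the other, and whether the rows of a pair are independent was not tested. AL512380.2 (chromosome 6, 21528739 to 21595593), over SOX4, a factor of progenitor cells, had WT counts of 1325 and 1284, KO1 counts of 3246 and 3085, and KO2 counts of 2954 and 3089, a log2 rise of 1.22 ± 0.12 (edgeR adjusted p = 0.000541). The row SOX4 went from 30 and 24 reads to between 107 and 117, a rise of 2.01. AC091588.3, over GATA6, an endoderm and heart factor, had WT counts of 650 and 697, KO1 counts of 2140 and 2104, and KO2 counts of 1696 and 1871, a rise of 1.52 ± 0.17 with KO1 above KO2 by 0.47. The row GATA6, with 12 and 16 reads in WT and 36 to 48 in the knockout libraries, rose by 1.58 (adjusted p = 0.0101), and this second row is not among the 104. On chromosome X, the row PIN4, which lies over exons of both CITED1, a transcriptional coactivator of the embryonic kidney, and RPS4X, had 865 and 920 reads in WT and 4877 to 5369 in the knockout libraries, a rise of 2.48 ± 0.10. CITED1, the row over PIN4, had 3 and 1 reads in WT and 17 to 28 in the knockout libraries, and its call ended without WT library 2 (adjusted p = 0.0981, log2 2.74 to 4.31 over the left-out libraries).

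Cadherins, which join cells to each other, moved in both directions. AC110015.1 (chromosome 18, 27954519 to 27963687), over 136 exonic bases of CDH2 (N-cadherin), had WT counts of 260 and 322, KO1 counts of 772 and 788, and KO2 counts of 863 and 922, a log2 rise of 1.5 ± 0.12 (edgeR adjusted p = 9.86e-05). AC099314.1 (chromosome 16, 68814330 to 68823526), over 347 exonic bases of CDH1 (E-cadherin), had WT counts of 96 and 107, KO1 counts of 27 and 31, and KO2 counts of 40 and 37, and fell by 1.62 ± 0.21 (adjusted p = 0.00175). DSG2-AS1, over DSG2, a desmosomal cadherin, fell from 1872 and 2056 reads to 831 and 796 (KO1) and to 1006 and 984 (KO2), by 1.15 ± 0.09, and the median of all rows in its 10 Mb window stood at −0.68 to −0.92 in the knockout libraries. As in every called row, the WT and knockout libraries of these rows did not overlap. CDH1 is also the kidney tubule marker that set the summed level of that list above, and the part of cell identity in its fall was not tested. Cytoskeletal genes lay under other rows that fell: GSN-AS1 over GSN (gelsolin, which severs actin) by 1.45, FLNC-AS1 over FLNC (filamin C) by 1.37 and AC011558.1 over CNN2 (a calponin) by 1.04. FLNC-AS1 shares 68 exonic bases with FLNC, below the limit for an assigned gene.

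Of the rows that fell, several type I keratin rows on chromosome 17 had no reads in any knockout library. KRT38, a hair keratin with no opposite-strand exon over it, had 222 and 236 reads in WT and 0 in all 4 knockout libraries, at least 304-fold lower with 3 counts over the knockout arm as the limit (edgeR adjusted p = 5.22e-05). KRT32, with 42 and 68 reads in WT, and the pseudogene KRT43P, with 41 and 36, were likewise at 0, at least 73.0-fold and 51.1-fold lower. Whether reads of near-identical keratin copies were split among these rows was not tested. KRT35, with 14 and 49 reads in WT and 0 in the knockout libraries, lost its call in limma-voom with the line as a random block (adjusted p = 0.0618) and could not be tested without WT library 2. KRT36, with 10 and 12 reads in WT, was also at 0, and neither is among the 104. In the keratin list 4 of 8 tested rows were called, all lower, against 8.62% of all rows tested. KRT38, KRT43P, KRT32 and KRT36 lie close together on the minus strand, from about 41436000 (KRT38) to 41492546 (KRT36). Rows that share a locus need not be separate observations, so the count is not set against that share as if they were. The 4 libraries at 0 make the span of the knockout values 0, so like size says little there.

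ADAMTSL4 gave a pair of rows that went opposite ways. AL356356.1 (chromosome 1, 150548562 to 150557724, minus strand), over 189 exonic bases of ADAMTSL4, which encodes a protein of fibrillin microfibrils, had 124 and 114 reads in WT and 7 to 9 in the knockout libraries, and fell by 3.95 ± 0.24 (edgeR adjusted p = 2.37e-05). The row ADAMTSL4, over ADAMTSL4-AS1 and AL356356.1, had WT counts of 92 and 124, KO1 counts of 201 and 237, and KO2 counts of 296 and 248, and rose by 1.16 (adjusted p = 0.00665), a call not among the 104. Among 2807 pairs of tested rows that lie over each other, 33 had both rows of like size, and in 31 of them both rows went the same way, 17 higher and 14 lower. How many of all 2807 pairs went the same way was not counted. The other pair that went opposite ways was AC105020.6 with IMP3. Rows of a pair share a locus and need not be independent observations. Nor need the pairs be, since some share a row, such as those with AKAP13, NCAM1 or PRKCZ. Some also lie in shifted windows, described below, such as AL365330.1 with LRRC47.

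AP003396.3, over 793 exonic bases of USP2, a deubiquitinase, had WT counts of 249 and 269, KO1 counts of 48 and 44, and KO2 counts of 49 and 61, and fell by 2.39 ± 0.16 (edgeR adjusted p = 4.66e-05). ERCC2, a helicase of transcription factor IIH, whose row lies over 535 exonic bases of KLC3, a kinesin light chain, had 865 and 857 reads in WT and 205 to 232 in the knockout libraries, and fell by 2.01 ± 0.12. Both knockout lines stood at about the same level in each of these rows, which the like-size condition selects for. At PINK1, the kinase that marks damaged mitochondria for removal, both strands fell: the row PINK1 from 1770 and 1865 reads to between 606 and 657, by 1.55 ± 0.12, and PINK1-AS from 5129 and 5745 to between 2438 and 3246, by 0.95. The median of the rows in their 10 Mb window was −0.60 to −0.64 in the knockout libraries. OGG1, a DNA glycosylase for oxidised guanine, over CAMK1, a calcium-dependent kinase, fell by 0.82, and RNF157-AS1, over RNF157, a ubiquitin ligase, by 0.84. CIRBP, a cold-inducible RNA-binding protein whose row shares 4 exonic bases with CIRBP-AS1, had WT counts of 5403 and 6027, KO1 counts of 2120 and 2103, and KO2 counts of 3245 and 3149, and fell by 1.15.

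**Figure D2:**
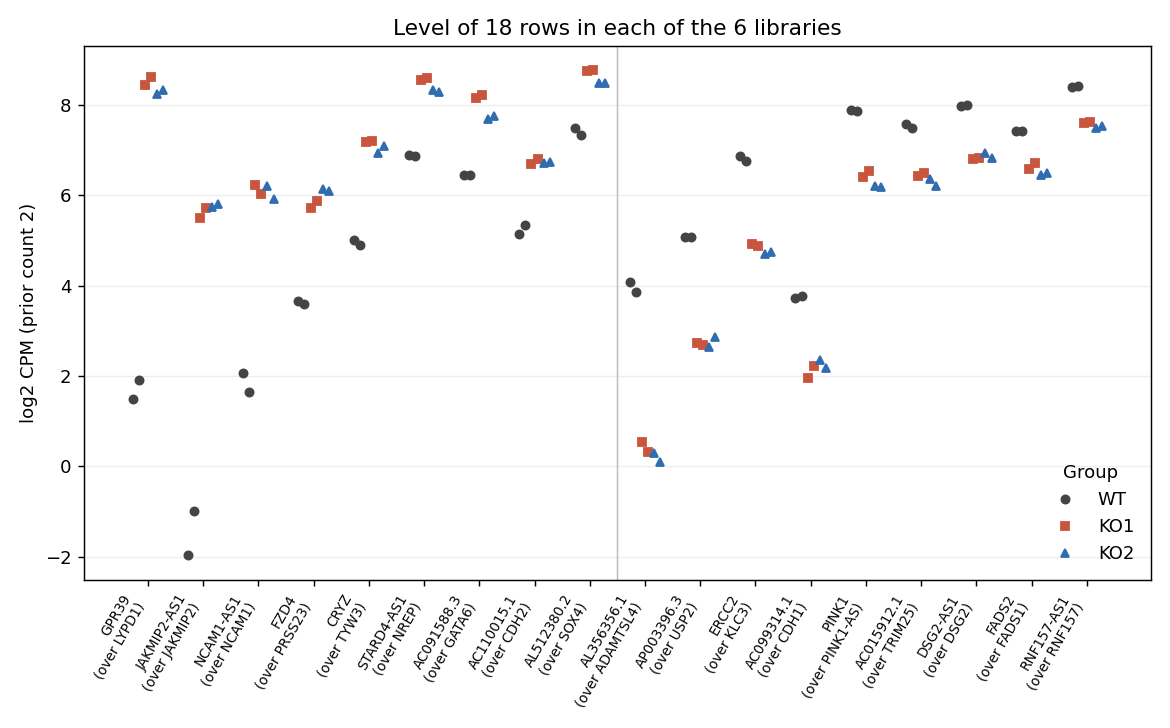
log2 CPM (prior count 2) of 18 rows in each library, WT as grey circles, KO1 as red squares and KO2 as blue triangles, with the opposite-strand gene in parentheses. In the 9 rows left of the line all 4 knockout libraries lie above both WT libraries, and in the 9 rows right of it all 4 lie below. In every called row the knockout libraries lie beyond both WT libraries.

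UQCRHL, an intronless copy of the respiratory chain gene UQCRH with no opposite-strand gene over it, had WT counts of 6 and 3, KO1 counts of 361 and 365, and KO2 counts of 448 and 439, 85.2-fold more. The copies are near-identical, and whether reads of UQCRH were counted there was not tested. The most abundant like-size rows over protein-coding genes mostly changed little. AL160408.2, over IRF2BP2, a transcriptional corepressor, was the exception among the 6 most abundant risers over protein-coding genes, with WT counts of 3787 and 3903, KO1 counts of 7572 and 7375, and KO2 counts of 11646 and 12108, a rise of 1.28, while the other 5 rose by 0.29 to 0.56. The 6 most abundant that fell did so by 0.42 to 0.57, among them HIF1AN, over NDUFB8, a complex I subunit, from 11353 and 11820 reads to between 8157 and 9445 (edgeR adjusted p = 0.00801). These 11 smaller changes all lost their call without WT library 1 and without WT library 2. Over the left-out libraries the log2 changes were 0.27 to 0.60 in the risers and −0.37 to −0.63 in the rows that fell. In windows of 10 Mb, described below, the median change of a row's neighbours can be subtracted in each library. With that, 9 of the 11 lost their call and stood between −0.08 and 0.11, HIF1AN among them at 0.0351 (adjusted p = 0.833), and the rise of AL160408.2 was 0.54 (adjusted p = 0.0489).

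Rows of like size clustered along the genome. In 10 Mb windows that held 15 or more rows with a mean count of at least 50, the median log2 ratio to the WT mean was taken in each library, giving 147 windows. In 14 windows all 4 knockout libraries had a median above 0.2, and in 18 all 4 lay below −0.2, a limit chosen after the values were seen. The mitochondrial genome was 1 of the 18 lower windows, with 22 tested rows, 10 of them of like size and lower. The largest distance of a WT library from the WT mean in any window was 0.098. Of 816 rows tested in the 14 higher windows, 104 (12.7%) were of like size and higher and 6 (0.735%) of like size and lower. In the 18 lower windows the figures for 1296 rows were 3 (0.231%) higher and 163 (12.6%) lower. The 115 windows with no such shift held 8390 tested rows, 143 (1.70%) of like size and higher and 171 (2.04%) lower. The windows were classed from the same libraries as the calls, so these shares are a description.

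Chromosome 10 shows this most plainly. Of its 538 tested rows, 58 (10.8%) were of like size and lower and none was of like size and higher. The median over its 241 rows of mean count 50 or more was −0.51 and −0.50 for the KO1 libraries against −0.36 and −0.37 for those of KO2, and 83.8% of the rows lay below WT. On chromosome 1 the 2 ends went opposite ways. From 1 to 30000000 the knockout medians were −0.45 to −0.54, with 44 rows of like size lower and 1 higher, and from 160000001 to the end they were 0.50 to 0.54, with 53 higher and 1 lower. Chromosome 17 also divided. From 20000001 to 40000000 the medians were 0.30 to 0.56, with 24 rows higher and none lower, and beyond 40000001 they were −0.27 to −0.41, with 49 lower and 2 higher. Chromosome 15 beyond 60000001 had medians of 0.24 to 0.32 (33 higher and 3 lower), chromosome 12 beyond 120000001 of 0.31 to 0.36 (13 and 2) and chromosome 18 from 20000001 to 40000000 of −0.53 to −0.65 (3 and 10). By contrast, chromosome 2 stood at −0.02 to 0.00 (9 higher and 13 lower of 901) and chromosome 11 at −0.05 to 0.01 (17 and 15 of 779).

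**Figure D3:**
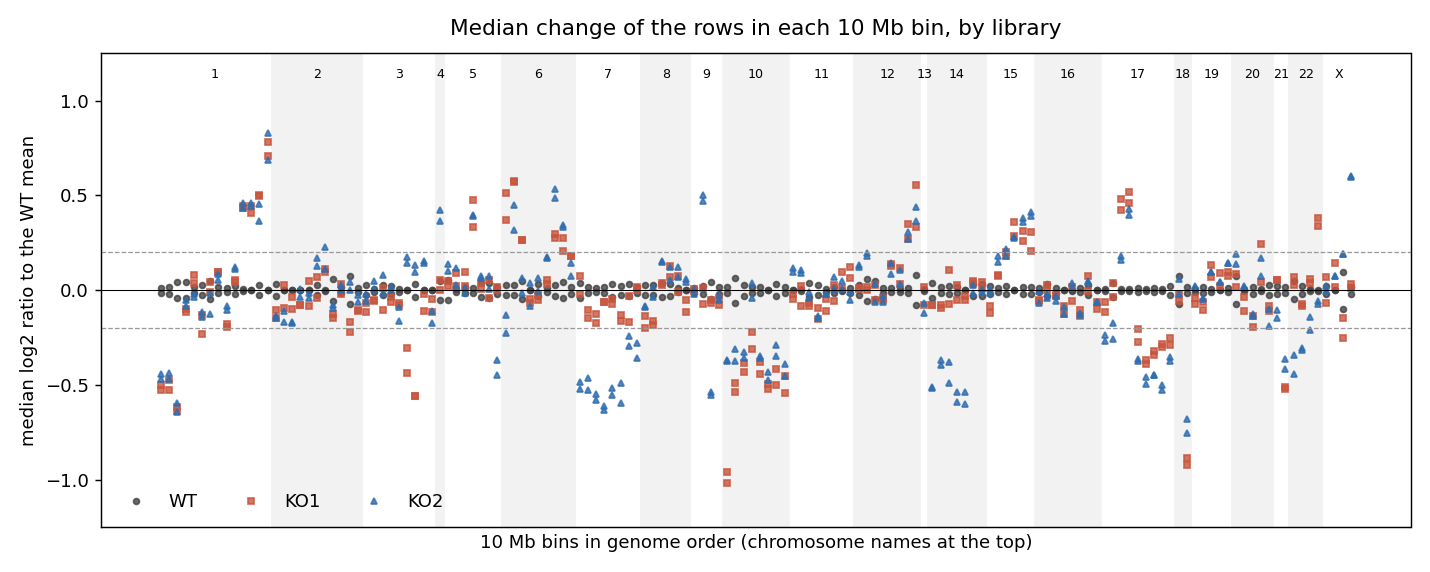
Median log2 ratio to the WT mean of the rows in each 10 Mb window, in genome order with chromosome names at the top. WT is shown as grey circles, KO1 as red squares and KO2 as blue triangles, with dashed lines at 0.2 and −0.2. The mitochondrial window is not drawn. Both knockout lines lie below WT in the measured windows of chromosome 10, except that KO2 is near WT in 1 of them, and at the start of chromosome 1, and above WT at its end, while windows of chromosomes 7 and 14 are low in KO2 alone.

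**Figure D4:**
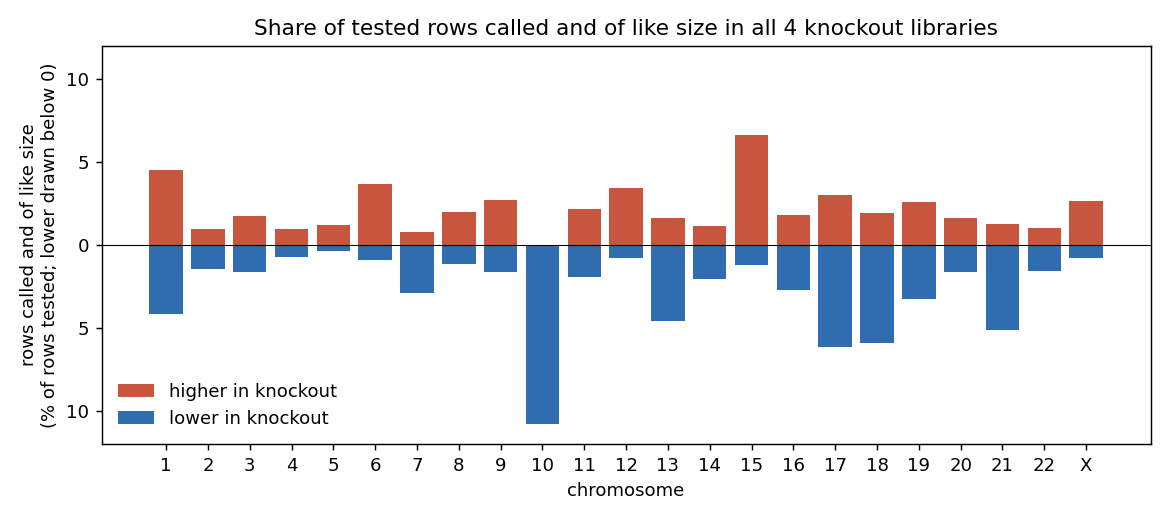
Percentage of the tested rows of each chromosome that were called and of like size, higher above 0 (red) and lower below 0 (blue). Chromosome 10 has 10.8% lower and none higher, and chromosome 15 has 6.65% higher and 1.17% lower.

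Several rows named here lie in such windows. When the median of its window was subtracted in each library, 301 of the 590 like-size rows that could be refitted stayed called, all with the same sign as before. TRIM25, a ubiquitin ligase of the antiviral response, lies under AC015912.1 on chromosome 17, which fell by 1.16 and by 0.72 after the subtraction, with an edgeR adjusted p of 0.000292 and 0.00151. DSG2-AS1 over DSG2 fell by 0.33 after the subtraction (adjusted p = 0.0429), PINK1 by 0.91, PINK1-AS by 0.32 (adjusted p = 0.0492) and RNF157-AS1 over RNF157 by 0.42. RPL22, over RNF207 on chromosome 1, fell by 1.5 and by 1.01, and AL359198.1, over FGFBP3 on chromosome 10, by 1.43 and by 1.04. AL391650.1, over ZNF593, a chromosome 1 row with 4286 and 4586 reads in WT and 2618 to 3001 in the knockout libraries, fell by 0.70 and stood at −0.07 after it, no longer called (adjusted p = 0.681). LSS, the enzyme that closes the sterol ring, lies under AP001469.1 on chromosome 21, which fell by 0.82 and stood at −0.35 after it (adjusted p = 0.102). NCAM1-AS1 rose by 4.30 after the subtraction, AP003396.3 over USP2 fell by 2.42 and ERCC2 over KLC3 by 2.05. Of the 104 rows that stayed called without any 1 library, 45 lay in shifted windows (9 in higher and 36 in lower ones), 38 in the others, and 21 had no window that could be measured.

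By annotation, rows over opposite-strand exons were called most often. Of 7688 such rows tested, 11.2% were called and 7.18% were of like size, against 4.92% and 2.17% of 1564 rows in opposite-strand introns and 5.19% and 2.79% of 4550 rows with no opposite-strand gene. Median counts differed too, at 105.5 reads in the first class against 20 and 20.8 in the others, and the part of depth in these shares was not tested. Read through the opposite strand, 4909 genes had an assigned row, 620 of them (12.6%) called and 392 (7.99%) of like size. Antisense rows were of like size in 9% of 2579, protein-coding rows in 4.13% of 9167 and processed pseudogenes in 1.5% of 534.

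The spliceosome is the machinery that U6 serves. Through the opposite strand none of 9 genes of the U6 and tri-snRNP list and none of 4 among U1, U2 and Sm proteins was called, and the medians of those lists were −0.03 and 0.31, against 0.03 over all rows tested. By row symbol the counts were 1 of 27 and 0 of 24. Against the 12.6% of all assigned genes and 8.62% of all rows that were called, lists of this size hold too few genes to be read as lower. The single call was USB1, the exonuclease that trims the end of U6, over ZNF319, with WT counts of 143 and 164, KO1 counts of 100 and 82, and KO2 counts of 97 and 114, −0.67 ± 0.17 in log2 (edgeR adjusted p = 0.0383). That call ended when any 1 of the 6 libraries was left out (adjusted p up to 0.285, log2 −0.63 to −0.72). In the list of SR proteins, hnRNPs and splicing kinases, 3 of 20 genes read through the opposite strand were called, all higher. That share (15%) is close to the 12.6% of all assigned genes. COX20, which shares 3502 exonic bases with HNRNPU (a scaffold protein of the nucleus that also regulates splicing), had WT counts of 2952 and 3102, KO1 counts of 5858 and 4667, and KO2 counts of 7014 and 7457, a rise of 1.00 ± 0.12, and held its call without any 1 library. GATC over SRSF9 (0.29) and TGFB1 over HNRNPUL1 (0.34) lost theirs when either WT library was left out, and GATC also without either KO2 library (adjusted p up to 0.351 and 0.312, log2 at least 0.27 and 0.30). With the median of its window subtracted, GATC stood at −0.00100 and was not called (adjusted p = 0.994), while TGFB1 rose by 0.30 and was (adjusted p = 0.0209). COX20 lies in the shifted end of chromosome 1 in a window that could not be measured. In the nonsense-mediated decay list, none of 4 genes was called through the opposite strand and 1 of 17 by row symbol, and in the minor spliceosome list 1 of 5 (POLR3K over SNRNP25, −0.65, a call that ended whichever library was left out, adjusted p up to 0.314, log2 −0.59 to −0.72) and 0 of 10.

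TRMT112 activates several methyltransferases, and 23 genes of the list of its partners, THUMP proteins and tRNA modification enzymes were read through the opposite strand. Of these, 13.0% were called, close to the 12.6% of all assigned genes. In the first reading 1 rose (CRYZ over TYW3, above) and 2 fell, of which AL355075.2 over OSGEP, the catalytic subunit of a tRNA threonyl-carbamoylation complex, was of like size, from 383 and 438 reads to between 232 and 280. Its log2 change of −0.71 lost the call without either WT library (adjusted p up to 0.213, log2 −0.63 to −0.78) and stood at −0.41 with the median of its window subtracted (adjusted p = 0.132). By row symbol 3 of 48 were called (6.2%, against 8.62% of all rows tested). THUMPD3, a paralogue of THUMPD2, over THUMPD3-AS1, had WT counts of 170 and 212, KO1 counts of 353 and 328, and KO2 counts of 479 and 421, a rise of 1.02 ± 0.15 (edgeR adjusted p = 0.00427) that was lost without either WT library (adjusted p up to 0.11, log2 at least 0.91). Medians of this list were −0.06 and −0.05.

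Neuronal adhesion and synapse genes were called in 6 of 11 read through the opposite strand (54.5%), 5 higher and 1 lower, with a list median of 1.41. By row symbol 1 of 17 was called (5.9%), and the median was 0.30. Over all features, 12.6% of assigned genes and 8.62% of rows tested were called. Like-size risers were JAKMIP2-AS1 over JAKMIP2, NCAM1-AS1 over NCAM1 and AC027228.2 over CHRNA5, a nicotinic receptor subunit, the last by 0.55, from 1859 and 2119 reads to between 2883 and 3079. The CHRNA5 call was lost without either WT library (adjusted p up to 0.204, log2 at least 0.50) and with the window subtracted (0.26). The list was chosen with changes at these loci known, so its count is not independent evidence of a direction. Interferon and antigen presentation genes were called in 5 of 8 (62.5%, against 12.6% of all assigned genes), all lower, with a list median of −0.82 and 2 of like size. By row symbol 2 of 21 were called (9.5%), both lower and neither of like size, with a median of −0.21. AL671883.2, over HLA-B, which presents peptides to T cells, had WT counts of 4777 and 5196, KO1 counts of 1848 and 1865, and KO2 counts of 2932 and 3161, a fall of 1.07 ± 0.16, deeper in KO1 by 0.50, and lost its call without either WT library (edgeR adjusted p up to 0.0587, log2 −0.98 to −1.16). The other like-size row of that list was AC015912.1 over TRIM25, from 1412 and 1436 reads to between 635 and 676.

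Sterol and fatty acid synthesis genes were called in 4 of 11 (36.4%, against 12.6% of all assigned genes), all lower, with a list median of −0.24. FADS2, whose row lies over FADS1, and FADS1, whose row lies over FADS2, are neighbouring desaturases that make polyunsaturated fatty acids. The row FADS2 had WT counts of 1264 and 1367, KO1 counts of 720 and 745, and KO2 counts of 721 and 781, and fell by 0.85 ± 0.11 (edgeR adjusted p = 0.00154), a change of like size, while the row FADS1 fell further, from 1162 and 1427 reads to 195 and 218 (KO1) and to 331 and 340 (KO2), and was not of like size. IDI2-AS1, over IDI1, an isomerase early in sterol synthesis, fell by 0.77 and lost its call without either WT library (adjusted p up to 0.0893, log2 −0.69 to −0.82). By row symbol the list had 4 of 29 called (13.8%, against 8.62% of all rows tested), 1 of them higher.

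Developmental transcription factors and retinoic acid genes were called in 9 of 23 through the opposite strand (39.1%, 4 higher and 5 lower), with 6 of like size, among them those over SOX4 and GATA6, and TFAP2A-AS1 over TFAP2A, a neural crest factor, at 0.89 (call lost without either WT library, adjusted p up to 0.126, log2 at least 0.80, and with the window subtracted, to 0.44, adjusted p = 0.135). Extracellular matrix genes gave 6 of 23 (3 higher and 3 lower), DNA replication and mitosis 1 of 15, the ATF4 and endoplasmic reticulum stress list 3 of 15, p53 targets 2 of 7, both higher, and the nuclear-encoded respiratory chain 3 of 17. In that order the shares were 26.1%, 6.7%, 20%, 28.6% and 17.6%. Over all assigned genes 12.6% were called. By row symbol, 12.2% of 49 developmental transcription factors and retinoic acid genes were called. For the other lists in the order above, the shares by row symbol were 9.1% of 44, 2.9% of 70, 0.0% of 36, 7.1% of 28 and 1.8% of 56. Zinc finger ZNF genes were called in 20 of 101 (19.8%), 10 in each direction, 13 of them of like size. By row symbol 23 of 217 were called (10.6%), 16 higher and 7 lower. AC006213.1 over ZNF155 rose by 1.34, from 211 and 270 reads to between 580 and 677. Genes of inherited retinal dystrophy, a condition named in the title of the series, were called in 0 of 17 through the opposite strand and in 5 of 41 by row symbol, all lower, 1 of like size. That row, ROM1, a photoreceptor disc protein, over EML3, had WT counts of 448 and 428, KO1 counts of 253 and 214, and KO2 counts of 273 and 289, −0.80 ± 0.13, and lost its call without either WT library (edgeR adjusted p up to 0.131, log2 −0.72 to −0.89). Macular degeneration genes were called in 4 of 20 by row symbol, 2 higher and 2 lower, and in 2 of 5 through the opposite strand, AC011558.1 over CNN2 and ADAMTS9-AS1 over ADAMTS9, both lower, and the second lost its call without either WT library (adjusted p up to 0.137, log2 −1.11 to −1.36). Lists of fewer than 10 genes give shares that 1 gene moves by over 10 percentage points. For counts by row symbol, the share called over all rows tested was 8.62%.

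The mitochondrial genome had 10 of 22 tested rows of like size and lower, against 2.84% of all rows tested, and none higher. It formed 1 of the 18 lower windows above, and 7 of its rows are among the 36 of the 104 that lay in lower windows. Library medians were −0.66 and −0.50 (KO1) and −0.73 and −0.84 (KO2). MT-TE (14674 to 14742), a row without an opposite-strand gene, fell from 1850 and 2182 reads to 512 and 559 (KO1) and to 799 and 871 (KO2), by 1.60, and by 0.86 with the mitochondrial median subtracted.

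**Figure D5:**
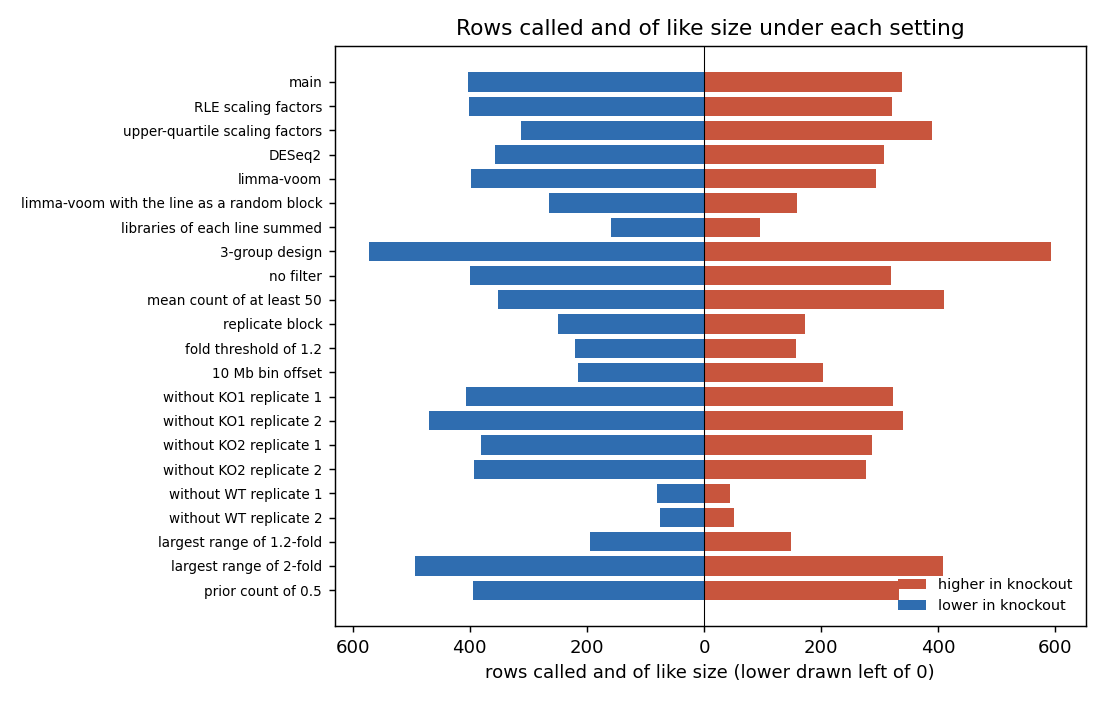
Number of rows called and of like size under each way of processing the counts, higher to the right (red) and lower to the left (blue). The pooled fit gave 338 and 403, the fit with 3 groups 593 and 572, the sums of each line 95 and 158, and leaving out either WT library 45 to 51 and 76 to 81.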

How the data were processed

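Total RNA of 6 HEK293T libraries was sequenced with a directional kit, library type RF or first-strand per the labels' protocols. The authors deposited raw counts per gene symbol, made with Trim Galore, STAR 2.7.1a and HTSeq 0.6.1p1 per the submitters' processing notes, which name the builds hg38 and GRCh38.p6. No source used here states which annotation or strand option HTSeq was run with. The authors' deposited table, per the file headers, holds, for both lines against WT, log2 fold changes with p-values and q-values, used here only beside the counts. Groups came from the sample titles.

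Counts were tested with the quasi-likelihood test of edgeR 4.0.16 in R 4.3.3 (2 arms, TMM, filterByExpr, no covariate), with 4 residual and 5.59 prior degrees of freedom. Log2 fold changes of low rows depend on edgeR's prior count. KO1 against KO2 came from a fit of 3 groups. Like size used log2 CPM with a prior count of 2. An opposite-strand gene was assigned at 100 or more shared exonic bases making up at least 80% of the opposite-strand overlap. By symbol 56239 rows were placed directly and 324 through a current symbol, and 175 symbols belonged to several genes. Named rows were, among like-size calls with a mean CPM of at least 1, the 12 highest, 12 lowest and 6 most abundant each way with an assigned protein-coding gene, the 6 highest and 6 lowest with no opposite-strand exon and a symbol that is not clone-based, microRNA, LINC or LOC, up to 4 per gene list by smallest p, THUMPD2, TRMT112 and the row over TRMT112, and, among calls of any size, the 3 rows in each direction that differed most between the lines. Members and lists were chosen with earlier results of these data known. The test was also run on simulated data, a check of the code that gives no error rate for these libraries.

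Other fits used size factors by RLE or upper quartile, limma-voom 3.58.1 with and without the line as a random block, summed lines, 3 groups, DESeq2 1.42.0, no filter or a higher one, a block by replicate number, a minimum fold of 1.2, the window offset, other like-size limits, a stricter assignment and leaving out each library. Reads carry no molecular identifiers, so intervals and limits cover counting error only. Total counts of 7414339 to 8391143 leave many rows with few reads, so small changes in rows near the filter were not detectable at this depth.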

Additional observations from a re-analysis of the deposited data

Results flagged for a closer look

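Of 124 named rows that were tested, 9 had 1 knockout library apart from the other 3, by the gap to the nearest library as a share of the range of the 4. The rate of 1 in 20 that chance gives for 4 independent values does not apply here. These are libraries of 2 lines, and most rows were chosen for a narrow span. In RPL22 over RNF207 the gap was 0.904 of the range, with 132 reads in 1 KO2 library against 81 to 95 in the others. The share was 0.954 in AL953897.1 over C1orf167, 0.835 in AC027243.1 over ISL2, 0.841 in ROM1 over EML3 and 0.873 in AC010185.1 over KCNJ8. It was 1.0 in FAM86GP, AC005481.1, AC022413.2 and PARP9 over DTX3L, where 3 of the 4 knockout libraries had no read and the other had 5, 2, 1 and 2. With 3 libraries at no read the share is fixed at 1.0.

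The lines differed by the edgeR test of KO1 against KO2 in 29 of the 124 rows. As KO1 minus KO2 in log2, 2 rows were far apart, AC011503.1 over ZNF726 at −6.23 and AC024563.1 over ZNF492 at −5.38, both with no read in KO1. KO1 was lower in CCDC152 over SELENOP (−0.42), FZD4 over PRSS23 (−0.32), AL160408.2 over IRF2BP2 (−0.45), MT-TE (−0.42), COX20 over HNRNPU (−0.25), SRFBP1 over LOX (−0.38), IDI2-AS1 over IDI1 (−0.26), AL390208.1 over SESN1 (−0.25), AL671883.2 over HLA-B (−0.50), SHLD2 over GLUD1 (−0.16) and CFAP126 over SDHC (−0.21). It was higher in GPR39 over LYPD1 (0.25), PCAT1 over FAM84B (0.21), SNAP47 over JMJD4 (0.20), SPATA21 over SZRD1 (0.18), SRSF9 over GATC (0.23), AC027228.2 over CHRNA5 (0.20), ST7L over WNT2B (0.28), AL512380.2 over SOX4 (0.28), AC091588.3 over GATA6 (0.47), AC027601.4 over SLC38A10 (0.29), PSMG4 over SLC22A23 (0.39), AC006213.1 over ZNF155 (0.32), RAB35 over AC004812.2 (0.30), RPS2 (0.35), NR2C2 over MRPS25 (0.15) and TRMT112 over ESRRA (0.43). Of these 29 rows, 26 were of like size.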

How the results depend on the processing

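The pooled fit gave 1223 calls (535 higher, 688 lower), 741 of them of like size (338 and 403). Counts of calls, higher and lower, then of like size, higher and lower, were as follows. With voom and the line as a random block (correlation within a line 0.327) there were 641 (189, 452) and 422 (158, 264). Summing the libraries of each line gave 409 (160, 249) and 253 (95, 158). A fit of 3 groups gave 4009 (1748, 2261) and 1165 (593, 572). Without a filter there were 1979 calls (912, 1067). A fold threshold of 1.2 gave 624 (264, 360) and 378 (157, 221), and the 10 Mb window offset 697 (323, 374) and 419 (203, 216) of 10502 rows. A span of at most 1.2-fold left 342 like-size rows (148, 194). Over the left-out libraries the ranges were 197 to 1147 calls (76 to 488, 121 to 659) and 126 to 809 of like size (45 to 339, 76 to 470), the lowest each without a WT library. With the replicate number of the labels as a block there were 631 (261, 370) and 422 (172, 250), but the pairing is only by number: correlations of the differences between replicates 1 and 2 were −0.03, −0.02 and −0.10. With upper-quartile factors 52.2% of calls were higher against 43.7%, and 55.5% against 45.6% among like-size rows. The 4 named rows that changed sign did so with the window offset, to values near 0: GATC at −0.00100, HIF1AN at 0.0351, AC004707.1 at 0.0104 and MCM3AP-AS1 at 0.0452. In the remaining fits none of the named rows changed sign. The stricter assignment left 239 of 427 like-size rows with an opposite-strand gene. In 63 like-size rows, 20 higher and 43 lower, the call held in every fit. A row that some fit could not test is not among these 63. GPR39 over LYPD1, for example, is outside them because its window could not be measured. The cause of these changes was not tested.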
